A study of Mus musculus with 6 samples.

Results

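The genes described here are 10 parts of the Wnt signalling system, namely 6 secreted Wnt antagonists (Wif1, Sfrp1, Sfrp2, Sfrp5, Dkk2 and Dkk3) and 4 genes of the beta-catenin branch (Axin2, Lef1, Tcf7l2 and Nkd1). They were taken by name from the platform annotation, which gave them 24 of the 45037 probe sets that are not controls. RNA was measured on 6 single-colour arrays, 3 of cerebellar astrocytes and 3 of neocortical astrocytes of the mouse. The strain is given as ICR for the neocortical arrays alone, so strain and brain region cannot be told apart if the cerebellar cells came from another strain. No genotype, treatment, age or culture history is given for either group, and nothing says whether arrays of a group came from separate animals, so p-values reflect no more than the scatter among these 6 arrays, part of which may be technical.

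Wnt proteins are secreted lipid-modified ligands that bind Frizzled receptors together with the co-receptors Lrp5 and Lrp6. Binding stops a destruction complex, built on the scaffolds Axin and Apc, from breaking down beta-catenin, which then enters the nucleus and activates genes together with the DNA-binding TCF/LEF factors. Secreted antagonists act before this step: Wif1 and the secreted Frizzled-related proteins (Sfrp) bind Wnt ligands, and Dkk2 binds the Lrp co-receptors. In the brain the pathway is known for patterning the neural tube, for proliferation of neural progenitors and for forming the blood-brain barrier.

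All 10 astrocyte markers, such as Gfap, Aqp4 and Slc1a3, were bright enough to be tested, but so were all 8 microglial and all 9 fibroblast and meningeal markers, so this does not set the labelled cell type apart from those cells. The summed astrocyte marker signal ran from 210100 to 286200 on cerebellar and from 309500 to 353000 on neocortical arrays, and 1 was higher and 4 were lower in cerebellar cells. The spread within the cerebellar group was wide for other cell types: cerebellar replicates 1, 2 and 3 had summed microglial signals of 5716, 31770 and 20580, against 15610, 28210 and 9915 on neocortical replicates 1, 2 and 3. The summed fibroblast and meningeal signals were 66110, 155400 and 272400, against 115800, 96940 and 147100. Cerebellar replicate 1 thus had the lowest sum of all 6 arrays on both lists. None of 8 microglial markers passed limma's test between regions (0 at an unadjusted p below 0.05), and of 9 fibroblast markers Ogn was lower in cerebellar cells. Of other markers, Mbp and Aqp4 were higher, and Olig1, Olig2, Gad1, Syt1, Kdr, Folr1, Slc1a3, Aldoc, Glul and Fabp7 were lower, while Mog, Pecam1, Tie1 and Kl were at the floor on all arrays.

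**Figure D1:**
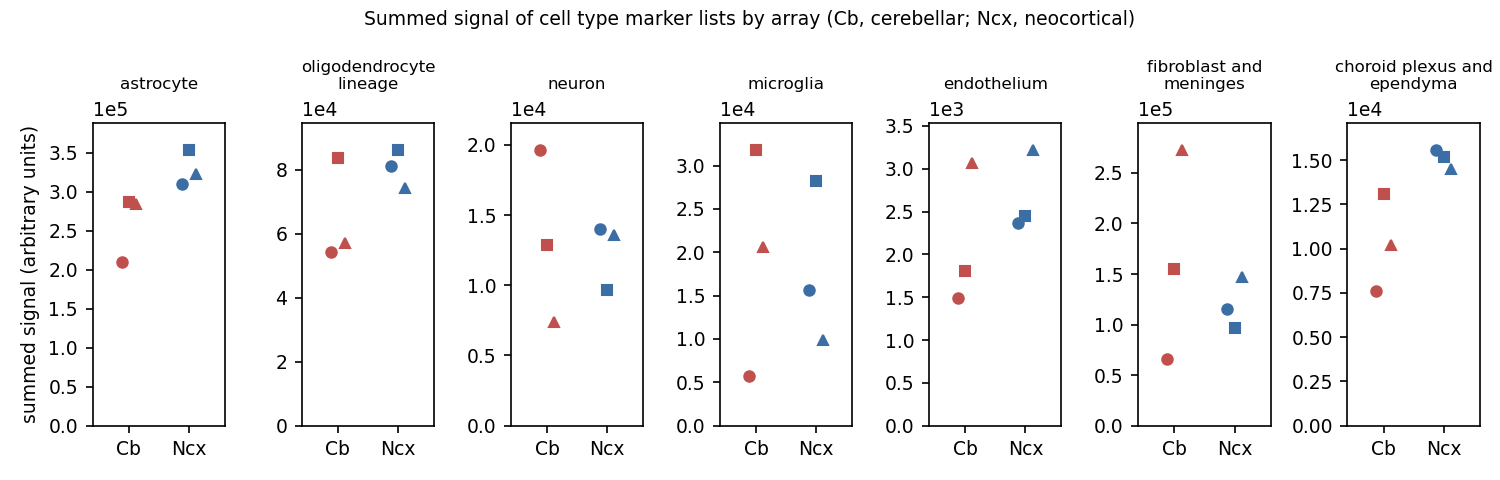
Summed quantile-normalized signal (arbitrary units, linear axes from 0, with the multiplier above each) of 7 cell type marker lists on each array, with cerebellar (Cb, red) left of neocortical (Ncx, blue), and circles, squares and triangles for replicates 1, 2 and 3. Cerebellar replicate 1 was lowest for astrocyte, microglial and fibroblast markers, and every cerebellar array was below every neocortical array for the astrocyte list and for the choroid plexus and ependyma list.

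Of the 10 genes, Wif1 was higher and Dkk2 was lower in cerebellar astrocytes, 7 were tested and did not pass, and Sfrp2 was too dim to be tested. Each gene was called by its brightest probe set, with limma's adjusted p over all 27022 probe sets whose mean signal reached the 40th percentile. Calls at an adjusted p below 0.05 made up 22.2% of the 9 tested genes, against 12.7% of all 12616 tested genes (5.3% higher, 7.36% lower), so with 9 genes the share is close to that background. The median log2 difference of the 9 genes was -0.34, against -0.01 over all tested genes. By probe set, 1 was higher and 4 were lower of 20 tested, against a background of 10.6% (4.88% higher, 5.72% lower), but 3 of these 5 belong to Sfrp1 or Dkk3, whose probe sets read the same gene. A lower signal in such RNA can come from fewer cells that express a gene or from less RNA per cell, which cannot be told apart.

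**Figure D2:**
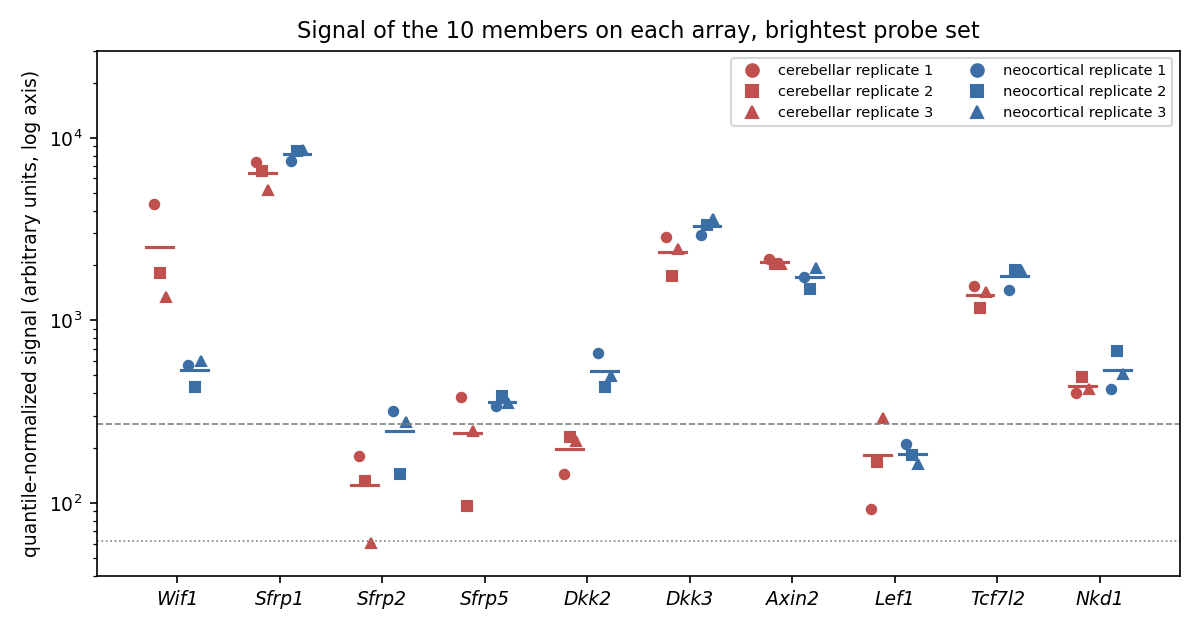
Quantile-normalized signal (arbitrary units, log axis) of each member's brightest probe set on every array, with cerebellar in red left of neocortical in blue, bars at the group means, a dashed line at the highest reading of bacterial control probe sets (269.2) and a dotted line at the floor (62.2). Wif1 stands out with all cerebellar arrays above all neocortical ones, and Dkk2 runs the other way at signals close to the control range. The control reading is as deposited, before quantile normalization.

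Wif1, a secreted protein that binds Wnt ligands through its WIF domain, had signals of 4363.6, 1828.2 and 1343.6 on cerebellar replicates 1, 2 and 3, against 573.6, 432.4 and 598.8 on neocortical replicates 1, 2 and 3. The groups did not overlap, and the highest reading was on cerebellar replicate 1. Cerebellar cells averaged 2512 ± 1620 and neocortical cells 534.9 ± 89.7 (SD, n = 3 each). The fitted log2 difference was 2.06 ± 0.379 (SE), a 4.16-fold higher signal, with a 95% confidence interval of 1.2 to 2.92 (limma adjusted p = 0.0107). Without cerebellar replicate 1 the log2 difference was 1.57 and still passed (limma adjusted p = 0.00458). Without neocortical replicate 2 it was 1.91 and did not (limma adjusted p = 0.0513). Wif1 is also known as a marker of Bergmann glia, a radial type of cerebellar astrocyte.

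The array with the most Wif1 signal was the one with the lowest sum of astrocyte, oligodendrocyte, microglial, endothelial, fibroblast and choroid plexus markers, and with the highest sum of neuronal markers. The neuronal sums were 19610, 12900 and 7410 on cerebellar replicates 1, 2 and 3, against 14030, 9695 and 13610 on neocortical replicates 1, 2 and 3. Most of each sum was Stmn2 alone, with 17382.7, 10507.8 and 5219 on cerebellar and 11185, 6065.3 and 10601.3 on neocortical replicates 1, 2 and 3. Of the 10 neuronal markers 6 were too dim to be tested. Among the 4 tested, only Stmn2 was highest on cerebellar replicate 1, and Syt1 was lowest there. The part of these cell types in the size of the Wif1 difference was not tested beyond leaving out that array.

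Dkk2, a dickkopf protein that binds Lrp6, was lower in cerebellar astrocytes. Its signals were 144.6, 229.7 and 219.3 on cerebellar replicates 1, 2 and 3, against 664, 433.1 and 498.1 on neocortical replicates 1, 2 and 3. The groups did not overlap. All 3 cerebellar readings lay within the range of the bacterial controls, which reached 269.2, though above their 95th percentile of 116. Controls were read as deposited, before quantile normalization, so this comparison is approximate. The size of the fold is thus uncertain. Cerebellar cells averaged 197.9 ± 46.5 and neocortical cells 531.8 ± 119 (SD, n = 3 each). The fitted log2 difference was -1.43 ± 0.303 (SE), a 2.7-fold lower signal (95% confidence interval -2.12 to -0.75, limma adjusted p = 0.0193). Without neocortical replicate 1 it was -1.26 (limma adjusted p = 0.0917) and without neocortical replicate 3 it was -1.47 (limma adjusted p = 0.0734). Dkk2 thus did not pass in either fit, and the called share of all tested probe sets fell as well, to 4.91% and 4.49% from 10.6%.

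For Wif1 and Dkk2, the members called on their brightest probe set, the 250 bases before the annotated start are shown from RefSeq (GRCm38.p6, plus strand), with CG dinucleotides in capitals. CG-rich promoters of Wnt antagonists are known as sites of DNA methylation in tumours, and methylation was not measured here.
Wif1, chr10:121033754-121034003: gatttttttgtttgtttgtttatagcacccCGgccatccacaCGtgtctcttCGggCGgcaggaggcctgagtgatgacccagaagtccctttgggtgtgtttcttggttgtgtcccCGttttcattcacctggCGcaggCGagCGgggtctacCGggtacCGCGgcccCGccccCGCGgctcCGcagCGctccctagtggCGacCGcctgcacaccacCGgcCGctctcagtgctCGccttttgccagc
Dkk2, chr3:132085042-132085291: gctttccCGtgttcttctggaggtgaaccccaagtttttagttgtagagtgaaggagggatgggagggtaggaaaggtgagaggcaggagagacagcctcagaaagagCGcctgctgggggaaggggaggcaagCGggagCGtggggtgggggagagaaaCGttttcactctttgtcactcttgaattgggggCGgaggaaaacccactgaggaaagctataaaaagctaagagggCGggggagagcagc
The Wif1 window held 21 CG dinucleotides with a GC content of 62.8%, and the Dkk2 window 7 with 55.6%. The median over all 32851 windows of this length in the table was 6.

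Sfrp1, a secreted protein with a Frizzled-like cysteine-rich domain, was measured by 5 probe sets. In each of them every cerebellar array read below every neocortical array. Groups were without overlap for 32.2% of all 27022 tested probe sets, and these 5 read the same gene on the same arrays. The brightest, 1428136_at, gave 7396.2, 6591.5 and 5165.4 on cerebellar replicates 1, 2 and 3, against 7489.1, 8493.7 and 8625.4 on neocortical replicates 1, 2 and 3. The groups came close, since cerebellar replicate 1 lay just under neocortical replicate 1. Its log2 difference was -0.37 ± 0.138 (SE) and did not pass (limma adjusted p = 0.122).

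A second Sfrp1 probe set, 1460187_at, gave 3847.9, 3091.6 and 2517.3 on cerebellar replicates 1, 2 and 3, against 5223, 4475.8 and 5538.9 on neocortical replicates 1, 2 and 3. It was lower in cerebellar astrocytes by 1.63-fold, with a log2 difference of -0.7 ± 0.163 (SE, limma adjusted p = 0.0272). The probe set 1438620_x_at was lower as well, with a log2 difference of -0.63 ± 0.155 (SE, limma adjusted p = 0.0341). The remaining pair, 1448395_at and 1416594_at, had log2 differences of -0.44 (limma adjusted p = 0.0646) and -0.79 (limma adjusted p = 0.0726). With the replicate number as a block this pair passed, with limma adjusted p values of 0.0427 and 0.0337. It also passed without cerebellar replicate 1 (limma adjusted p = 0.0333 and 0.0241) and with arrays scaled to a common median (0.0397 and 0.0404). That scaling shifts the median of all probe sets to -0.096 from 0.009, toward lower cerebellar signal. With no variance trend the calls of 1460187_at and 1438620_x_at were lost (limma adjusted p = 0.0844 and 0.0755), as they were with no filter on dim probe sets (0.132 and 0.106).

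All 5 Sfrp1 probe sets had their lowest reading on cerebellar replicate 3 and, among cerebellar arrays, their highest on replicate 1. Cerebellar replicate 3 was also the array with the highest fibroblast and meningeal marker sum, 272400, and the part of those cells in the Sfrp1 difference was not tested. Without that array the log2 differences of the 5 probe sets were -0.23 to -0.55, all still negative, and none passed (limma adjusted p 0.0612 to 0.263). The calls of 1460187_at and 1438620_x_at were also lost without cerebellar replicate 2 or without any 1 of the neocortical arrays (limma adjusted p 0.0514 to 0.132), and were kept without cerebellar replicate 1. Taken as the mean of its probe sets, Sfrp1 had a log2 difference of -0.59 and passed (limma adjusted p = 0.045).

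**Figure D3:**
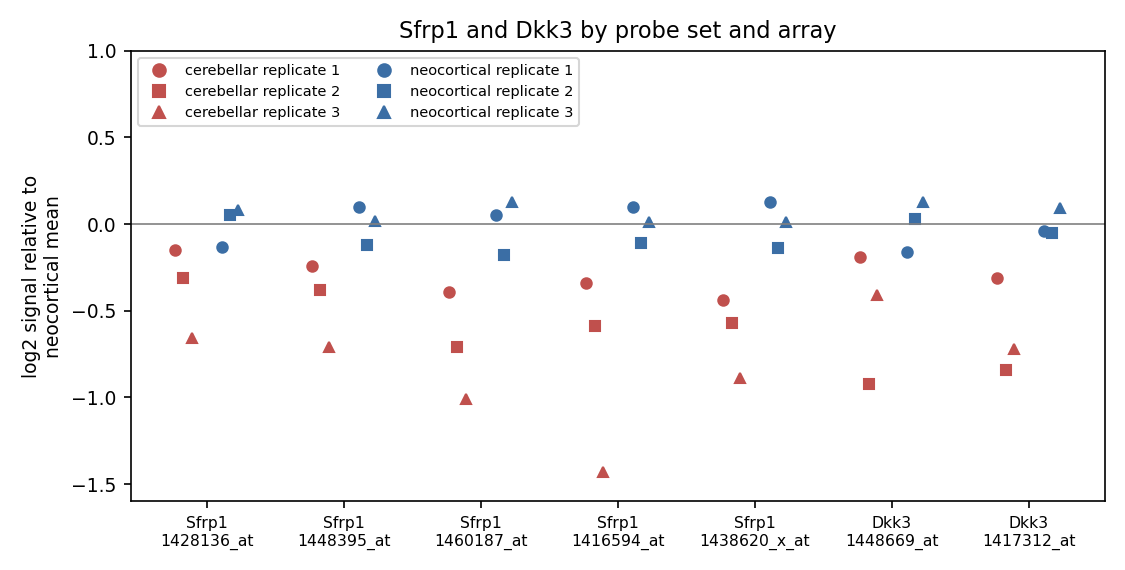
Log2 signal of each Sfrp1 and Dkk3 probe set on every array relative to the neocortical mean of that probe set, with cerebellar (red) left of neocortical (blue), and circles, squares and triangles for replicates 1, 2 and 3. All 7 probe sets have their cerebellar arrays below their neocortical arrays, with cerebellar replicate 3 lowest for Sfrp1 and cerebellar replicate 2 lowest for Dkk3. Of all tested probe sets 32.2% had groups without overlap, and probe sets of the same gene are not independent.

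Sfrp2 and Sfrp5, relatives of Sfrp1 with the same type of domain, were dim in both regions. The Sfrp2 probe set gave 181.9, 132 and 60.6 on cerebellar replicates 1, 2 and 3, against 318.9, 144.9 and 276.8 on neocortical replicates 1, 2 and 3. The groups overlapped, and the probe set missed the brightness limit for testing, with its mean at the 39.4th percentile. The tested Sfrp5 probe set, 1436075_at, gave 379.8, 96.4 and 247.2 on cerebellar and 339.8, 385.4 and 353.5 on neocortical replicates 1, 2 and 3. Its groups overlapped because of cerebellar replicate 1, and its log2 difference of -0.78 ± 0.469 (SE) did not pass (limma adjusted p = 0.33, 95% confidence interval -1.85 to 0.28). It was -1.22 without cerebellar replicate 1 and -0.23 without cerebellar replicate 2 (limma adjusted p = 0.116 and 0.692). The other Sfrp5 probe set, 1423023_at, was too dim to be tested and ran the other way. It averaged 167.6 ± 117 in cerebellar and 111.7 ± 39.3 in neocortical cells (SD, n = 3 each), with its highest reading, 299.7, on cerebellar replicate 2.

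Dkk3, a secreted dickkopf relative whose part in Wnt signalling is less settled than that of Dkk2, was read by 2 probe sets with 1 call between them. The brighter, 1448669_at, gave 2877.3, 1740.4 and 2470.6 on cerebellar replicates 1, 2 and 3, against 2940.3, 3349.7 and 3588.7 on neocortical replicates 1, 2 and 3. Its log2 difference was -0.5 ± 0.185 (SE) and did not pass (limma adjusted p = 0.12), but it passed at -0.66 without cerebellar replicate 1 (limma adjusted p = 0.0478). Without cerebellar replicate 2 it was -0.3 (limma adjusted p = 0.233). The other, 1417312_at, gave 2529, 1754 and 1897.1 on cerebellar and 3042.2, 3018.5 and 3339.7 on neocortical replicates 1, 2 and 3. It was 1.54-fold lower in cerebellar astrocytes, with a log2 difference of -0.62 ± 0.153 (SE, limma adjusted p = 0.0345). The groups did not overlap on either probe set, which was so for 32.2% of all tested probe sets. The call of 1417312_at was lost when any array other than cerebellar replicate 1 was left out, with log2 differences of -0.52 to -0.65 (limma adjusted p 0.0827 to 0.132). In those fits the called share of all tested probe sets was lower too, at 4.49% to 9.07% against 10.6%. The call was also lost with no variance trend (limma adjusted p = 0.0864) and with no filter on dim probe sets (0.122).

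**Figure D4:**
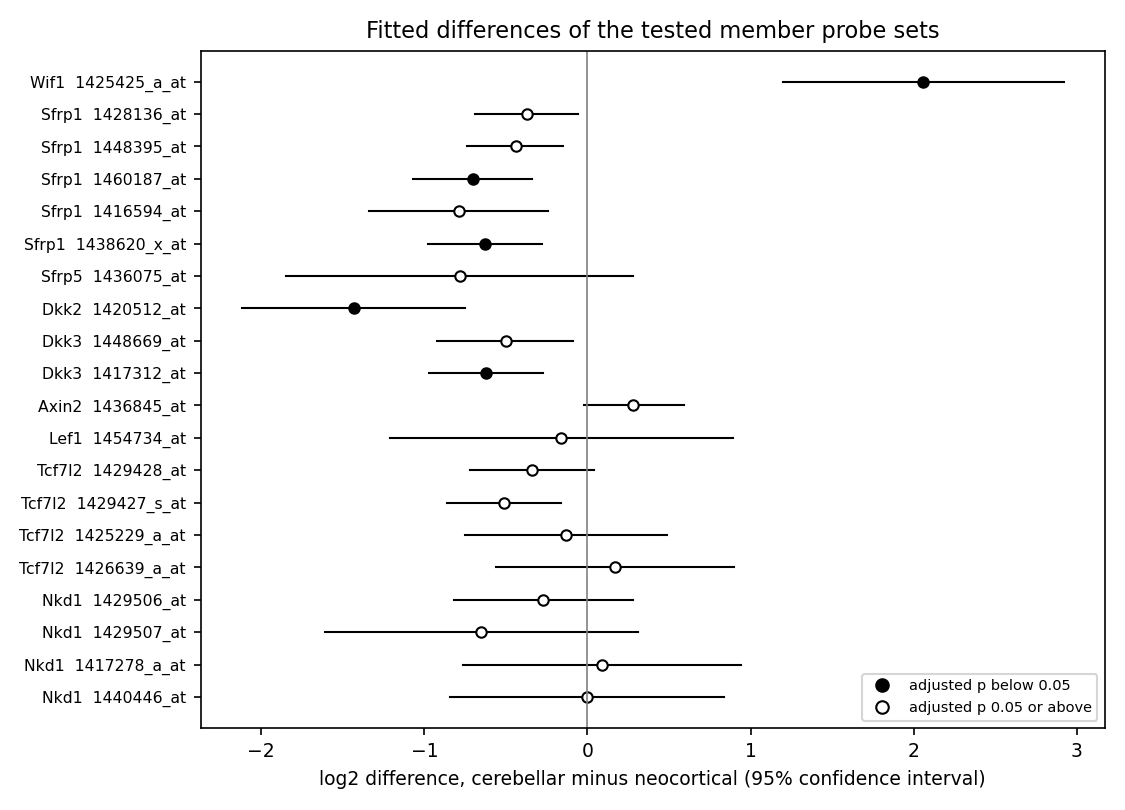
Fitted log2 differences (cerebellar minus neocortical) of the 20 tested member probe sets with 95% confidence intervals that are not adjusted for multiple testing, and filled points for a limma adjusted p below 0.05. Wif1 lies alone on the right at 2.06, the Sfrp1, Dkk2 and Dkk3 probe sets lie left of 0, and the intervals of 10 others, among them those of Axin2, Lef1 and Nkd1, cross 0.

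None of the 4 genes of the beta-catenin branch passed limma's test on any of their 10 tested probe sets, 1 of which had an unadjusted p below 0.05 (Tcf7l2 1429427_s_at), and their intervals bound how far they could differ. Axin2, a scaffold of the destruction complex and a widely used readout of beta-catenin activity, gave 2165.1, 2033.3 and 2047.4 on cerebellar replicates 1, 2 and 3, against 1734.7, 1495 and 1928.2 on neocortical replicates 1, 2 and 3. Every cerebellar array was above every neocortical array by a small margin. The log2 difference was 0.28 ± 0.136 (SE, limma adjusted p = 0.226), and its 95% confidence interval of -0.02 to 0.59 includes 0. Under other processing choices and without single arrays it was 0.17 to 0.37 and never passed (limma adjusted p 0.16 to 0.537). The second Axin2 probe set was too dim to be tested, averaging 107 ± 66.9 in cerebellar cells and 147 ± 9.94 in neocortical cells (SD, n = 3 each).

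Tcf7l2, a TCF factor that carries beta-catenin to DNA and that is spliced into many isoforms, had 4 tested probe sets. The brightest, 1429428_at, gave 1553.6, 1168.3 and 1425.2 on cerebellar and 1477.2, 1883.2 and 1889.3 on neocortical replicates 1, 2 and 3, with overlapping groups. Its log2 difference was -0.34 ± 0.166 (SE, limma adjusted p = 0.232). The probe set 1429427_s_at had a log2 difference of -0.51 without overlap of the groups (limma adjusted p = 0.0675). It passed at -0.61 when arrays were scaled to a common median (limma adjusted p = 0.0372), a scaling that shifts the median of all probe sets to -0.096 from 0.009. The others, 1425229_a_at and 1426639_a_at, had log2 differences of -0.13 and 0.17 (limma adjusted p = 0.812 and 0.786). Which isoforms the probe sets read is not given in the sources used here. Tcf7l2 is also known from maturing oligodendrocytes, and the summed signal of 10 oligodendrocyte lineage markers was 54290 to 83710 on cerebellar and 74200 to 86030 on neocortical arrays. Of its single markers, Mbp was 6.27-fold higher in cerebellar cells (log2 difference 2.65, limma adjusted p = 0.0134). Mbp gave 209, 58.8 and 288.4 on neocortical replicates 1, 2 and 3, with replicate 2 under the floor, so the size of this fold is uncertain. Olig1 and Olig2 were lower by 3.33-fold and 5.99-fold (limma adjusted p = 0.00129 and 0.000499), and Mog was at the floor on all 6 arrays. The part of that lineage in the Tcf7l2 signal was not tested.

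Lef1, the related factor known from brain endothelium and from cortical progenitors, was dim. Its tested probe set gave 92.4, 167.3 and 290.6 on cerebellar replicates 1, 2 and 3, against 209.4, 182.7 and 164.2 on neocortical replicates 1, 2 and 3. The cerebellar readings lay on both sides of the neocortical ones. The log2 difference was -0.16 ± 0.464 (SE, limma adjusted p = 0.865), and its interval of -1.21 to 0.89 leaves room for a difference in either direction. It was 0.26 without cerebellar replicate 1 (limma adjusted p = 0.735). Of 8 endothelial markers, 3 were bright enough to be tested, of which Kdr was 2.96-fold lower in cerebellar cells (log2 difference -1.56, limma adjusted p = 0.00304). Cldn5, too dim to be tested, gave 61.3 to 136.8 on cerebellar and 191.9 to 242.8 on neocortical arrays, and Pecam1 and Tie1 were at the floor on all arrays. The part of endothelial cells in the Lef1 signal was not tested.

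Nkd1, a feedback inhibitor that binds Dishevelled, had 4 tested probe sets with log2 differences of -0.65 to 0.09, and none passed (limma adjusted p 0.375 to 1). Its brightest probe set, 1429506_at, gave 402.6, 489.4 and 422.2 on cerebellar and 421.2, 683.4 and 509.9 on neocortical replicates 1, 2 and 3. The groups overlapped, and the log2 difference was -0.27 ± 0.244 (SE, limma adjusted p = 0.525, 95% confidence interval -0.82 to 0.28).

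By brightest probe set, 5 of the 9 tested genes had groups without overlap, against 34.3% of all tested genes. Wif1 and Axin2 were the ones with higher cerebellar readings, and Sfrp1, Dkk2 and Dkk3 those with lower ones. Fitted differences were negative for 7 genes and positive for 2.

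Promoter windows were searched for a TCF/LEF motif, the letters CTTTG followed by 2 letters that are each A or T, on both strands. The table had windows for 8 of the 10 genes, without Sfrp1 and Dkk3. Of 12 windows of these genes, of which a pair for Lef1 overlap, 2 held a match, against 14.8% of all 32851 windows. Both lie before downstream starts, within the bodies of the TCF/LEF factor genes themselves, and are shown for that reason with the match in capitals (RefSeq, GRCm38.p6, plus strand).
Lef1, chr3:131156044-131156293: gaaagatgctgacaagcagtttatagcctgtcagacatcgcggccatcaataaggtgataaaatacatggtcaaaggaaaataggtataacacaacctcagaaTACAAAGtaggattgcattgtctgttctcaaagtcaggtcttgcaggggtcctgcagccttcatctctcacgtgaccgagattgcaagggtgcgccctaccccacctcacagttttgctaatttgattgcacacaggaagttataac
Tcf7l2, chr19:55895071-55895320: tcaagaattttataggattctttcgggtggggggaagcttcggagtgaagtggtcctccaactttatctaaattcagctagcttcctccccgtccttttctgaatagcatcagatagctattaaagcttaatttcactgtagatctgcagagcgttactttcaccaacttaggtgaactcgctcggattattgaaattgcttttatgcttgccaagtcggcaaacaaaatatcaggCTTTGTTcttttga
The first base of the match lies 147 bases before the start in Lef1 and 14 bases before it in Tcf7l2. The windows of Wif1, Dkk2, Axin2 and Nkd1 held no match. A match describes the sequence and is not evidence of binding.

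Other genes that restrain the pathway outside or at the surface of the cell numbered 18 on the array, of which 11 were tested. In cerebellar cells 1 of these was higher and 2 were lower, or 27.3%, against 12.7% of all tested genes. The median log2 difference of this list was 0.33. Igfbp4, an insulin-like growth factor binding protein that also interferes with Wnt receptors, had a log2 difference of 2.61 ± 0.111 (SE, limma adjusted p = 1.02e-05), and all 6 of its probe sets were higher. Sostdc1, a secreted antagonist of both BMP and Wnt signals, gave 412.2, 572.3 and 472.8 on cerebellar replicates 1, 2 and 3, against 2529.9, 3062.3 and 3234.9 on neocortical replicates 1, 2 and 3. It was 6.08-fold lower in cerebellar astrocytes, with no overlap of groups (log2 difference -2.6 ± 0.177, SE, limma adjusted p = 8.04e-05). Tpbg, a membrane glycoprotein that inhibits Wnt signalling in zebrafish, was 1.59-fold lower on its brightest probe set (limma adjusted p = 0.0114), and 2 of its 3 probe sets passed. The brightest genes that did not pass were Apcdd1, a membrane Wnt inhibitor, at a log2 difference of 0.33, Shisa3 at 0.51 and Znrf3, a ligase that removes Frizzled receptors, at -0.3. Shisa3 passed at 0.99 without cerebellar replicate 3 (limma adjusted p = 0.0224), but was 0.19 without cerebellar replicate 1 and 0.35 without cerebellar replicate 2 (limma adjusted p = 0.765 and 0.647). Tpbg did not pass without neocortical replicate 2 or 3 (limma adjusted p = 0.0535 and 0.063).

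Other feedback and target genes showed no common direction. In cerebellar cells 2 of 17 tested genes were higher and 2 were lower, or 23.5%, against 12.7% of all tested genes. The median log2 difference of this list was 0.01. Tnfrsf11b, which encodes the decoy receptor osteoprotegerin, was 2.84-fold higher (limma adjusted p = 0.0221), and Klf5, a zinc finger factor, 1.53-fold higher (limma adjusted p = 0.0192). Bambi, a pseudoreceptor for BMP signals, was 2.34-fold lower (limma adjusted p = 0.00272), and Tnfrsf19, a receptor of the TNF family, was 2.03-fold lower (limma adjusted p = 0.0334). Only 1 of 2 tested probe sets passed for Tnfrsf11b and for Klf5, and 1 of 3 for Tnfrsf19. The cyclin genes Ccnd2 and Ccnd1 had log2 differences of 0.17 and -0.13, and Id2, an inhibitor of differentiation, of -0.2, and none of the 3 passed on its brightest probe set, though 1 of 3 probe sets of Id2 was lower. Tnfrsf11b did not pass without cerebellar replicate 1 or 3 or neocortical replicate 2 (limma adjusted p 0.0517 to 0.0596). Klf5 did not pass without cerebellar replicate 3 or neocortical replicate 2 or 3 (limma adjusted p 0.05 to 0.0808). Tnfrsf19 did not pass without cerebellar replicate 2 or any 1 neocortical array (limma adjusted p 0.0567 to 0.114).

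Among transducers and members of the destruction complex, 3 of 32 tested genes were higher in cerebellar cells and 3 were lower, or 18.8%. The share over all tested genes was 12.7%, and the median log2 difference of this list was 0.06. Porcn, which attaches the lipid to Wnt ligands, was 2.08-fold higher (limma adjusted p = 0.00444), and Wls, which carries ligands to the cell surface, was 1.67-fold higher (limma adjusted p = 0.0265). Of 5 tested corepressors of the Groucho family, which bind TCF/LEF factors or relate to proteins that do, Tle2 was higher and Tle4 lower, and Tle1, Tle3 and Tle5 did not pass, with log2 differences of 0.38, 0.03 and 0.25 (limma adjusted p = 0.357, 0.908 and 0.211). Tle2 gave 868.4, 603.3 and 1285.5 on cerebellar replicates 1, 2 and 3, against 247.4, 170.5 and 230.4 on neocortical replicates 1, 2 and 3, a 4.11-fold higher signal (limma adjusted p = 0.0045), with all neocortical readings within the bacterial control range. Tle4 gave 1418.1, 1778.2 and 1831.1 on cerebellar and 3282, 4095.8 and 3036 on neocortical replicates 1, 2 and 3, a 2.07-fold lower signal (limma adjusted p = 0.00408). Of 3 tested Tle4 probe sets 2 passed.

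Ctnnbip1, a small protein that keeps beta-catenin from TCF factors, was 2.76-fold lower in cerebellar astrocytes (log2 difference -1.46 ± 0.128, SE, limma adjusted p = 0.000273), on both of its probe sets. Ctbp2, a corepressor, was 1.35-fold lower on its brightest probe set (limma adjusted p = 0.022), and 1 of its 2 tested probe sets passed. Ctnnb1, the gene of beta-catenin itself, had a log2 difference of -0.03 ± 0.0631 (SE, limma adjusted p = 0.781), with means of 83290 in cerebellar and 85290 in neocortical astrocytes. The kinase gene Csnk1a1 had a log2 difference of 0.21 and the tankyrase gene Tnks2 of 0.17 on their brightest probe sets, neither of which passed, while 3 of 4 probe sets of Csnk1a1 were higher and 1 of 3 of Tnks2 was lower. Wls passed without cerebellar replicate 2 but not without any other single array (limma adjusted p 0.0576 to 0.101), and Ctbp2 did not without cerebellar replicate 2 or 3 or neocortical replicate 2 or 3 (limma adjusted p 0.0513 to 0.093). Over the 3 lists together, 6 of 60 tested genes were higher and 7 were lower, or 21.7%, against 12.7% of all tested genes, and Wnt genes were listed with earlier results on some of them known.

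**Figure D5:**
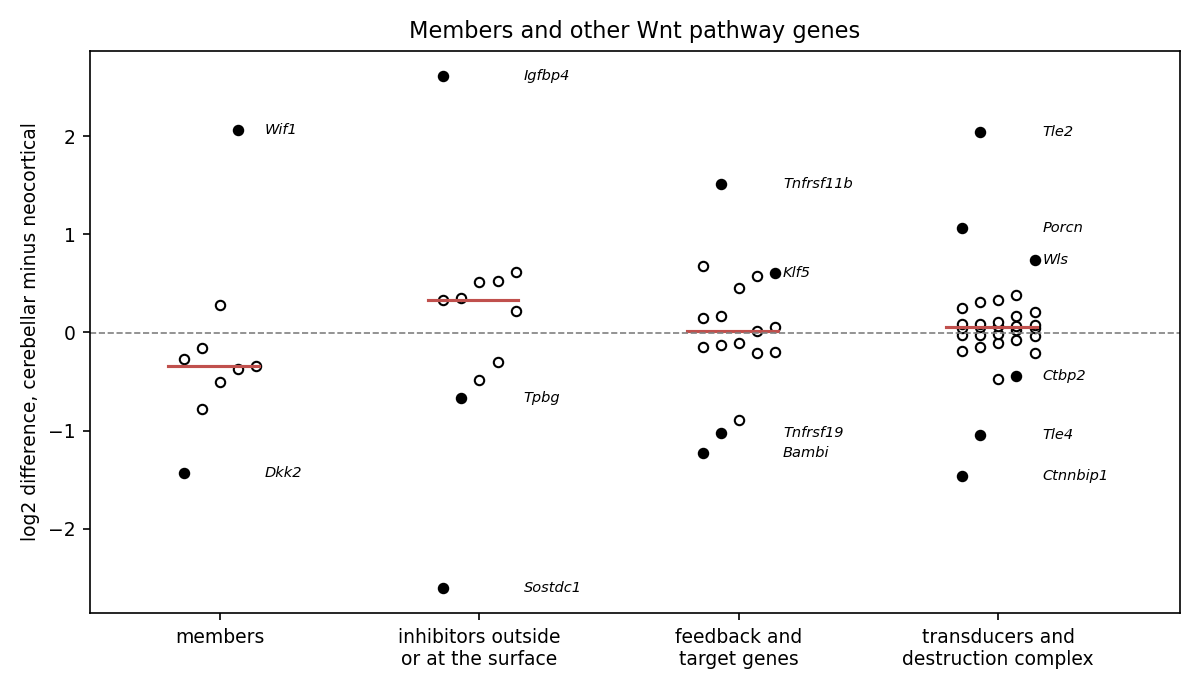
Log2 differences (cerebellar minus neocortical) of tested genes by brightest probe set, for the 10 genes described here and 3 further Wnt lists, with filled and named points for a limma adjusted p below 0.05, red bars at list medians and a dashed line at the median of all tested genes (-0.01). Calls lie on both sides of 0 in each list.

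The genes whose pattern over the 6 arrays was closest to that of Wif1, among 12615 other tested genes, were Ptger4, Cd83 and Gpr176. Their root mean square distances were 0.301, 0.331 and 0.346 on the log2 scale, each gene taken relative to its own neocortical mean. All 3 were highest on cerebellar replicate 1, with log2 differences of 2, 2.17 and 1.63 between the regions. Such likeness to Wif1 follows from choosing the genes by closeness over the same 6 arrays. All neocortical readings of Ptger4 and Cd83 lay within the range of the bacterial controls, so the size of these differences is uncertain. The genes closest to Dkk2 were Myrip, Synpo2 and the uncharacterised Gm38910, at distances of 0.138, 0.146 and 0.154 and with log2 differences of -1.25, -1.37 and -1.34. Like Dkk2, each of them was lowest on cerebellar replicate 1, which also follows from the way they were chosen. All cerebellar readings of Myrip and Gm38910 lay within the bacterial control range as well.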

How the data were processed

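The authors deposited 1 linear signal intensity per probe set and array, in a value table with 45101 probe sets, 64 of them controls. The sources used here do not say how signals were summarised and corrected for background, and give no detection calls. The deposited intensities had a mean of 1500 on every array after trimming 2% at each end, while their medians differed by up to 26.9%. Here quantile normalization was run on the 45037 others, and the log2 of each value was used after setting those under 62.2 (the 20th percentile) to 62.2. A linear model of cerebellar minus neocortical signal was fitted to the 27022 probe sets with a mean at or above the 40th percentile, using lmFit and trended eBayes of limma 3.58.1 (R 4.3.3). Tests were two-sided, with Benjamini-Hochberg adjustment over all of these probe sets and a threshold of 0.05. Errors of differences are standard errors of that fit, and signals in the text are quantile-normalized intensities before the floor. A set of 24 bacterial control probe sets read 2.9 to 269.2 as deposited. Controls were not part of the quantile normalization, so setting normalized signals against that range is approximate. Spearman correlations ran from 0.932 to 0.945 within groups and from 0.922 to 0.933 between them. Gapdh control signals had 3′ over 5′ ratios of 0.913 to 1.07 on cerebellar arrays and 0.865 to 0.883 on neocortical arrays.

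A gene's brightest probe set stood for it. Symbols came from the platform annotation, updated by Entrez ID through the GRCm38.p6 RefSeq table. Signals of different probe sets were compared only to pick and rank the brightest, which is no measure of which gene has more RNA, and the number of arrays, 3 per group, limits the precision. The fit was tested on simulated data.

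After subtracting group means, arrays that share a replicate number correlated at 0.18, 0.188 and 0.101, and other pairs across groups at -0.182 to 0.0225. With 3 arrays per group this cannot show that the replicate numbers pair the arrays, and no label states it. The fit without the replicate number as a block was kept as the main one, and the fit with it was an alternative. The members and lists were chosen with earlier results of these data known. All 10 members were named, and of the other Wnt lists the genes past the threshold (up to 4 per direction) and the 3 brightest that did not pass. Genes like a member were the 3 closest to each called member with a log2 difference of at least 1. Alternatives covered scaling, floor, filter, variance trend, choice of probe set, the replicate block and leaving out each array. Listed Wnt genes with no single-gene probe set here (Kremen2 and Tcf7) were not analysed.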

Additional observations from a re-analysis of the deposited data

How the results depend on the processing

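Wif1 stayed higher in cerebellar astrocytes under all 15 alternatives that gave it a value, with log2 differences of 1.57 to 2.42, and passed in 13. Dkk2 stayed lower under 15, from -1.57 to -1.22, and passed in 12. With no filter on dim probe sets, which tests all 45037, no member passed (0 higher, 0 lower, with limma adjusted p of 0.11 for Wif1 and 0.0842 for Dkk2). Of the 71 other Wnt genes on the array 6 passed (2 higher, 4 lower). Over all probe sets 2.84% passed, which is a share by probe set and not by gene. With the filter at the 60th percentile Dkk2 was not tested and 1 member passed (0 lower), against 14.5% of all tested probe sets. With no variance trend 8 other Wnt genes passed (3 higher), without Tnfrsf11b, Klf5, Tnfrsf19, Wls and Ctbp2 (limma adjusted p 0.0603 to 0.0968). Of all tested probe sets 5.88% passed in that fit. With a common median Klf5 and Wls did not pass (0.0904 and 0.0814). When a gene's probe sets were averaged, 3 members passed (1 higher, 2 lower), Sfrp1 being added. The called share of everything tested was 11.4% in that fit. Without suffixed probe sets, which removes the single Wif1 probe set, 1 member passed (0 higher) and 3 other Wnt genes were higher. The called share of all tested probe sets was 11.2% there. Leaving out 1 array at a time gave 1 to 3 members (0 to 1 higher, 0 to 2 lower) and 7 to 12 other Wnt genes (3 to 6 higher, 4 to 7 lower). Over all tested probe sets the called share was then 4.49% to 10.3%, against 10.6% in the main fit.

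With the replicate block 2 members (1 higher, 1 lower) and 13 other Wnt genes (6 higher, 7 lower) passed, as without it. The block called 12.4% of all tested probe sets. Apart from the 2 Sfrp1 probe sets given above it changed no call among the named genes.

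Among these alternatives, signs turned only for values that did not pass. Lef1 was 0.04 as deposited and 0.16 with the higher floor (40th percentile), and -0.57 to 0.26 without 1 array. Ctnnb1 was 0.1 as deposited and 0.05 with probe sets averaged. Tnks2 was -0.05 with a common median and -0.32 with probe sets averaged. The Tcf7l2 probe set 1425229_a_at was 0.03 as deposited and -0.28 to 0.09 without 1 array, and 1426639_a_at was -0.05 to 0.53. Nkd1 1440446_at was 0 with the higher floor and -0.25 to 0.21 without 1 array, and 1417278_a_at was -0.15 to 0.36. Ccnd1 was -0.37 to 0.03. Causes were not tested. Dim signal limits Sfrp2, Sfrp5, Lef1, Nkd1 and the cerebellar side of Dkk2.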
